A study of Mus musculus with 9 samples.

Results

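The transcriptome of day 10 dendritic cells of wild-type B6 mice was described from the 3 arrays whose titles name B6, out of 9 in the series. The other 6 come from mice labelled CIITA-/- and IAb-/- and are not compared here. The B6 arrays carry no treatment, knockout allele or transgene in their labels. Sex, age, number of animals, the tissue of origin and the culture of the cells are not given in the sources used here, and the titles number the arrays as experiments 1, 2 and 3. Experiment 1 was hybridised to one Affymetrix design (12588 probe sets that are not controls) and experiments 2 and 3 to another (12422), with 9977 probe sets under the same name on both. All of these probe sets were used, and a gene was read from its brightest probe set in experiments 2 and 3. No label says that the arrays come from separate mice or cultures, so the spread between them may be technical, and their number limits the precision of every value.

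Dendritic cells are the antigen-presenting cells that start T cell responses. They take up proteins, cut them in lysosomes and show the peptides to CD4 T cells on MHC class II molecules, while class I molecules show peptides made by the proteasome to CD8 T cells. On maturation they add costimulatory molecules such as CD80 and CD86 to the surface, gain the chemokine receptor CCR7 that leads them to lymph nodes, and secrete chemokines that attract T cells.

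Values are intensities in arbitrary units, and the steps that left some of them below 0 are not known. Some negative values recurred on every array, as for Rcvrn (-3791, -2108 and -2379 in experiments 1, 2 and 3). Negative values are therefore not random scatter alone. Below 0 lay 25.8% of the probe sets in experiment 1, 21.6% in experiment 2 and 22.2% in experiment 3. How far values fall below 0 was taken as a measure of noise: 95% of all negative values in a table of arrays are smaller in size than 1703 (experiments 2 and 3) or 2209 (experiment 1), and these were used as noise limits. A probe set above it on every B6 array that holds it is called above the limit, one under it on all of them within noise, and any other mixed. By that rule 4061 of 12422 probe sets (32.7%) were above the limit in both experiments 2 and 3, 7903 were within noise and 458 were mixed. In experiment 1, 3760 of 12588 (29.9%) were above the limit, and 3178 of the 9977 on both designs (31.9%) were above it on all 3 arrays. A stricter limit at the 99th percentile (3357) left 2627 in experiments 2 and 3. Probe sets for foreign RNA gave a check of the limit that did not enter it. All 15 probe sets for Bacillus transcripts lay between -868 and 629 on the 3 arrays, and the 4 for yeast between -118 and 725, all within noise. Of 15 antisense controls, which also did not enter the limit, 1 read above it in experiments 2 and 3 (1881 and 2131).

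**Figure D1:**
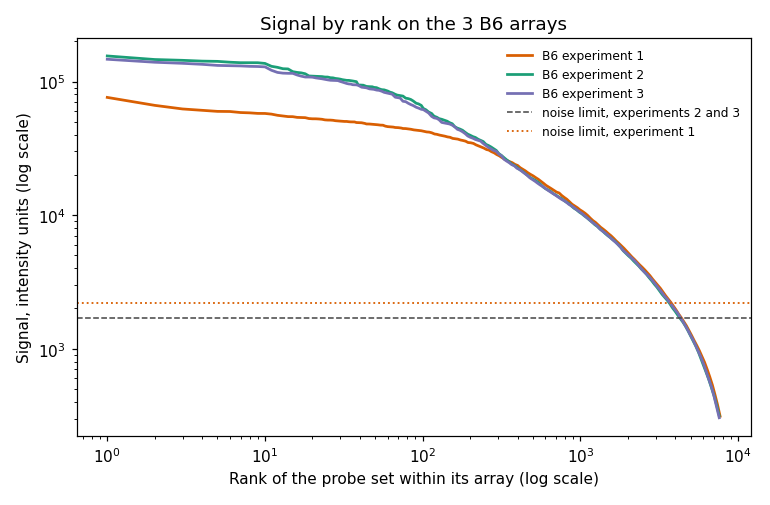
Signal (intensity units, log axis) against the rank of each probe set within its array (log axis) for the 3 B6 arrays, with both noise limits as horizontal lines. The curves of experiments 2 and 3 lie close together and reach 155433 and 146845, while that of experiment 1 flattens at the bright end and stops at 76072.

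Over genes, 3014 of 8251 (36.5%) were above the limit, 699 were mixed and 4538 (55%) within noise. The median gene stood at the 57.2nd percentile of the array rather than in the middle. For each gene the brightest of its probe sets was taken, and probe sets with no or several symbols were left out. What each of these choices adds was not tested. Percentiles here are ranks among all probe sets of an array that are not controls, averaged over experiments 2 and 3 unless an array is named.

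An order of genes by signal is an order of probe set signals, since probe sets bind their targets unequally. Of 373 genes with more than 1 probe set above the limit in experiments 2 and 3, 45.3% had probe sets over 2-fold apart, with a median range of 1.88-fold. In 730 of 2073 genes with several probe sets, one was above the limit and another within noise. Genes of basic cell functions were also among those within noise. The ribosomal protein gene Rps14 read 150, 155 and 203 in experiments 1, 2 and 3, the chaperone gene Calr -458, -89 and -37 (these were chosen after their values were seen). A gene within noise is therefore one not measured above background by its probe set, and no absence is read from it.

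The brightest genes of the B6 dendritic cells joined the machinery of protein synthesis with antigen presentation and T cell-attracting chemokines. The 30 genes of highest signal lay between 85350 and 151139 (mean of experiments 2 and 3) and included 13 ribosomal protein genes. Controls and probe sets with no or several symbols were left out of this order. Some of them were brighter, such as an actin control at 163548 and 152620 in experiments 2 and 3. Rpl41 led with 155433 and 146845, Rps28 read 138384 and 130901, and Rplp0 read 136653 and 128800. Eef1a1, the translation elongation factor that brings tRNA to the ribosome, read 142208 and 129948.

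Beside these stood genes with known roles in dendritic cells. Ccl17, a chemokine for CCR4-bearing T cells, was second with 141582 and 134526 in experiments 2 and 3. Cst3, the cysteine protease inhibitor cystatin C, followed with 138335 and 136897. Cd74, which encodes the invariant chain and escorts class II molecules to the lysosome, read 138308 and 129594. Ccl22, the other ligand of CCR4, read 109820 and 101662. All of these stood at the 99.8th percentile or higher on both arrays. Their order among one another is not read, since they lie closer together than probe sets of one gene often do.

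The rest of the 30 covered cytoskeleton, class I and a few other genes. Tmsb4x, the actin-binding thymosin beta 4, read 139532 and 131348, and Actg1, gamma actin, 108914 and 111939. The class I heavy chains H2-K1 and H2-D1 read 102713 and 96683, and 101558 and 95966, although probe sets of this family may share targets among related class I genes. Chil3, a secreted chitinase-like protein, read 105446 and 94661, and Fth1, the ferritin heavy chain that stores iron, 90437 and 86005. Cytip, which binds cytohesin and acts on integrin adhesion in dendritic cells, read 90350 and 93212. Basp1, Gnai2, Tpt1, Ccl5 and Gm15772 complete the group beside the ribosomal genes.

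The same probe sets did not hold that order in experiment 1. All 30 were on its array, 26 of them above the 95th percentile and 12 above the 99th, and 8 of the 30 were among the 30 brightest there. Cd74 read 14649 (94.2nd percentile), Ccl17 20288 (96.2nd), Ccl22 9606 (90.9th) and Rps28 7952 (89.1st, the lowest of the 30). The brightest genes of experiment 1 were Rpl7 (76072), Cytip (62341), Rps3a1 (59657) and Fth1 (58609).

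Control probe sets for actin and Gapdh were lower there as well. The 3 for actin read 138823 to 163548 in experiment 2 and 131313 to 152620 in experiment 3, but 23697 to 32414 in experiment 1, and the 3 for Gapdh 114970 to 145930, 109320 to 133626 and 26798 to 35323. Hybridisation spikes did not all go that way. Those for BioC and BioDn read higher in experiment 1, such as BioDn-5 with 25023 against 7324 and 7478 in experiments 2 and 3. Those for CreX read lower, such as CreX-3 with 38846 against 96031 and 93949, and those for BioB read about the same. By bands of signal, the 112 shared probe sets between 40000 and 80000 in experiments 2 and 3 had a median of 41911 in experiment 1, and the 63 above 80000 a lower one, 37146. The 518 between 10000 and 20000 had a median of 15168 there against 13451 in experiments 2 and 3. Signals of the brightest probe sets thus ran lower in experiment 1 than in the others, and levels are not compared across the designs. The cause was not tested, and the order of the brightest probe sets in experiment 1, and so their percentiles there, carry the same limit. Design and experiment cannot be told apart for this array. The ratio of the 3′ to the 5′ Gapdh control, a sign of RNA integrity, was 0.785 in experiment 1, 0.854 in experiment 2 and 0.874 in experiment 3.

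**Figure D2:**
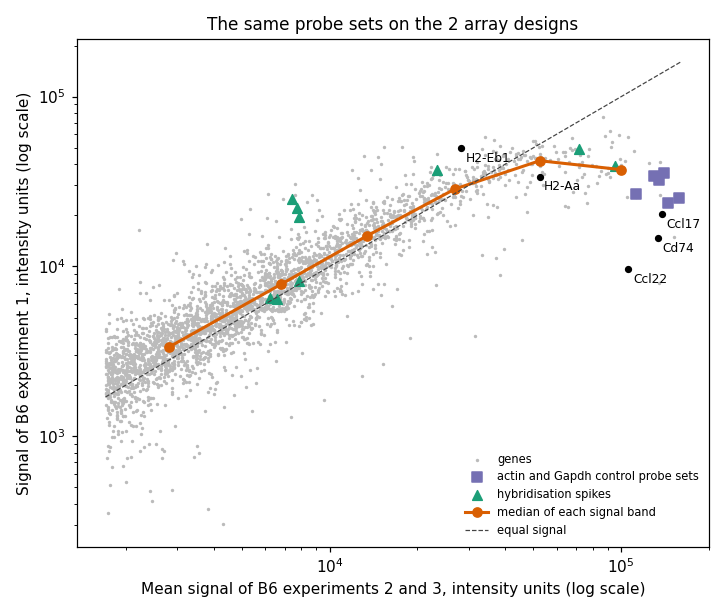
Signal of each gene's probe set in B6 experiment 1 against its mean in experiments 2 and 3 (both in intensity units on log axes), for genes above the noise limit in the mean; points under 300 in experiment 1 are not drawn. The median of each signal band (orange) lies above the dashed line of equal signal in the lowest band (3351 against 2811) and under it in the highest (37146 against 100054). Cd74, Ccl17, Ccl22 and the actin and Gapdh controls (squares) lie under the line, and triangles mark the hybridisation spikes.

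Between experiments 2 and 3 the B6 arrays differed little. Their Spearman correlation over 12422 probe sets was 0.97, against 0.933 and 0.931 between either and experiment 1 over the shared 9977, where the probe sets of an array share its RNA and scale. In the band from the limit to 5000 the median absolute log2 difference between experiments 2 and 3 was 0.14, and above 80000 it was 0.07. Of 4519 probe sets above the limit on at least 1 of the arrays, 27 (0.597%) differed by over 2-fold with values set to the limit where they were under it. With that floor at 0.5 times the limit the number was 81, and at 2 times the limit 5.

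Genes at the edges of that spread included a sex-linked one. Eif2s3y, a translation initiation factor gene of the Y chromosome, read 41 in experiment 2 and 5709 in experiment 3, the largest rise of log2 1.75 on the floored scale, with 482 in experiment 1. Socs3, an inhibitor of cytokine signalling, read 14143 in experiment 2 and 4539 in experiment 3 (log2 -1.64), and its other probe set went the same way, from 10443 to 2662. Fbp1, an enzyme of gluconeogenesis, read 21255 in experiment 2 and 9409 in experiment 3, and 50260 in experiment 1, so that it was over 2-fold lower in experiment 3 than in experiment 2. Cxcr4, the receptor that holds cells near CXCL12, read 2411, 1853 and 3639.

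Class II molecules pair an alpha and a beta chain, are escorted by the invariant chain and receive their peptide with the help of H2-DM, which H2-DO restrains. Of the 11 genes of this group, 7 were above the limit on all B6 arrays, 1 was mixed and 3 were within noise, against 36.5% above the limit over all genes. The group's median stood at the 93.9th percentile.

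The markers named for these cells were all bright. H2-Aa, which encodes the I-A alpha chain, read 33825, 51407 and 53578 in experiments 1, 2 and 3 and stood at the 98.3rd to 99.1st percentile. H2-Eb1, which encodes the I-E beta chain, read 49869, 26063 and 30418, and H2-Ab1, for the beta chain of I-A, 44048, 17261 and 21348. Unlike Cd74, both beta chains were higher by percentile in experiment 1 (99.7th and 99.3rd) than in the others.

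Peptide loading genes followed. H2-DMa read 24466, 14151 and 12429, H2-DMb1 32665, 15330 and 14460, and H2-DMb2 12775, 4235 and 4541. Of the H2-DO chains, H2-Oa read 8048, 1600 and 2873, mixed because experiment 2 lay under the limit, and H2-Ob 1393, 419 and 503, within noise. Ciita, the activator of all these genes, read 1045, 623 and 933, also within noise. H2-Ea, the alpha chain of I-E, whose promoter is known to be defective in B6 mice, read -99, 161 and 218.

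Class II promoters are known for an X box, bound by the RFX complex, and a Y box, bound by NF-Y, on which CIITA assembles. Promoters of 3 members above the limit are printed to show that layout, as the 130 bases before the RefSeq start, 5′ to 3′, in build GRCm38.p6. Capitals mark CTNGNAAC, the letters shared here by the core of the X box, and TGATTGG, the Y box core. H2-Aa lies on the minus strand at chr17:34287824-34287953, H2-Eb1 on the plus strand at chr17:34305737-34305866 and H2-DMb1 on the plus strand at chr17:34153061-34153190.
H2-Aa: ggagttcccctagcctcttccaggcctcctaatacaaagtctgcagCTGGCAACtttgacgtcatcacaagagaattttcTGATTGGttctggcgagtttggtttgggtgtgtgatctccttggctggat
H2-Eb1: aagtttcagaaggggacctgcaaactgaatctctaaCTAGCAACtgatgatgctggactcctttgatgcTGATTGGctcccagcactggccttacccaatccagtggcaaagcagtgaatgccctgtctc
H2-DMb1: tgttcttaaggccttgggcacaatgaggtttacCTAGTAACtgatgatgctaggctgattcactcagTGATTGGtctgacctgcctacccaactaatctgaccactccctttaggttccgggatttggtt
The X box letters begin 84, 94 and 97 bases before the start in H2-Aa, H2-Eb1 and H2-DMb1, and the Y box letters 50, 61 and 63.

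These letters were chosen after the sequences were read, and a match is a description of the letters only. Searched on both strands in the same 130 bases of all 32851 promoter entries, CTNGNAAC occurred in 5.81% and TGATTGG in 5.35%. CTNGNAAC followed on the same strand by TGATTGG after 5 to 40 bases occurred in 14 entries (0.0426%), among them H2-Aa, H2-Eb1, H2-DMb1 and H2-Ob. Other members with an entry did not hold both: H2-DMb2, above the limit, and H2-Oa, mixed, had TGATTGG alone. H2-DMa, above the limit, had neither at its 2 starts. Cd74, H2-Ab1, H2-Ea and Ciita had no promoter entry and were not searched. H2-Ob shares the letters while its probe set lay within noise. Of the other genes with them, Net1, which activates the small GTPase RhoA, was above the limit at 12055, 10784 and 14691, and Mark3 at 3811, 2759 and 3124, while Cks2 was mixed, Dnmt1, Mccc1 and Mns1 were within noise and 3 genes had no probe set.

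Of 15 measured genes of class I presentation, 14 were above the limit (93.3%, against 36.5% of all genes) and 1, Calr, was within noise, with a group median at the 94.3rd percentile. B2m, the light chain of class I, read 34234, 84283 and 82986 in experiments 1, 2 and 3. The inducible proteasome subunit genes Psmb8, Psmb10 and Psmb9 read 43373, 48324 and 49446, then 14619, 11377 and 12932, then 10737, 10952 and 10418. Of the peptide transporter, Tap1 read 18437, 14959 and 15070 and Tap2 2886, 2870 and 3183. Tapbp, tapasin, which holds class I molecules at the transporter, read 32742, 21157 and 23281. H2-M3, which presents formylated peptides, read 4701, 3577 and 3267, and Cd1d1, which presents lipids, 3594, 3810 and 3944.

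The lysosomal genes that cut antigens were among the brightest groups, with a median at the 95.5th percentile. Of 23 measured, 21 were above the limit (91.3%, against 36.5% of all genes). Ctss, the protease that trims the invariant chain in dendritic cells, read 49219, 78488 and 76025. Ctsz, Ctsb and Ctsd, further lysosomal cathepsins, read 50553, 52648 and 51770, then 43541, 53598 and 48114, then 26597, 51396 and 42378. Ifi30, the lysosomal thiol reductase that opens disulfide bonds of antigens, read 44502, 42544 and 36027. Npc2, a lysosomal cholesterol carrier that is only on the design of experiments 2 and 3, read 82448 and 80908. Ctsk and Cst7 were the members within noise.

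Markers of the dendritic lineage were read next. Their list was chosen with earlier results of these data known, so it is no independent check of the label. It includes Ccl17 and Ccl22, which are also counted with the cytokines. Of 19 measured lineage genes, 11 were above the limit (57.9%, against 36.5% of all genes), 1 was mixed and 7 were within noise. Itgax, the integrin CD11c by which dendritic cells are commonly sorted, read 36158, 38206 and 33205. The receptor chains for GM-CSF, the growth factor of dendritic cells, were above the limit: Csf2rb read 34774, 18756 and 17497, Csf2rb2 38521, 24477 and 25560, and Csf2ra 20256, 11346 and 10138. Ly75, the uptake receptor DEC-205, read 14788, 16708 and 16998, and Fscn1, the actin bundler of dendrites, 25621, 25218 and 22583. Zbtb46, a transcription factor of conventional dendritic cells, was dim but above the limit at 2724 and 2778, with no probe set of that name in experiment 1. Flt3, the receptor that drives dendritic cell growth from progenitors, read 2165, 2530 and 2538, with experiment 1 just under its limit. A second probe set of Flt3 read 2716, 1547 and 1745, with experiment 2 under the limit instead.

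Several markers of dendritic subsets were within noise, and others were above the limit. Cd8a, Itgae (CD103) and Xcr1, found on cross-presenting subsets, read at most 312, -142 and 257 on the 3 arrays. Kit, a progenitor receptor, read 367, -16 and 297, Dpp4 975, 712 and 647, and Cd5 -707, -450 and -429. Ly6d, known from plasmacytoid cells among others, read 126 and -86 in experiments 2 and 3. Sirpa, a receptor of the CD11b-type subset and of macrophages, was above the limit at 8612, 5045 and 5669. So was Cd24a, the surface protein CD24 found on several blood cells and on some dendritic subsets, at 33236, 24965 and 19862.

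**Figure D3:**
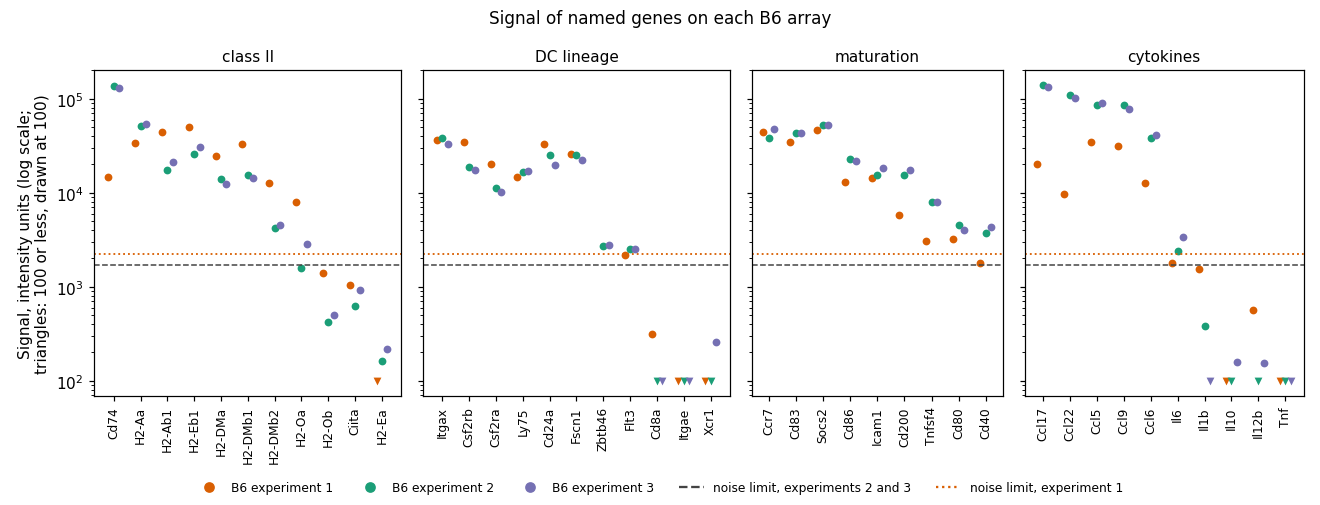
Signal (intensity units, log axis) of named genes of 4 groups on the B6 arrays of experiments 1, 2 and 3, with both noise limits as lines; triangles stand for 100 or less. Cd74, H2-Aa, H2-Ab1, H2-Eb1, Itgax, Ccr7, Cd83 and the CC chemokines lie above the limits on every array, while Ciita, H2-Ob, H2-Ea, Cd8a, Itgae, Xcr1, Il10, Il12b and Tnf lie under them on every array.

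The list of transcription factors is wider than the lineage and includes the NF-kB genes and signal transducers given below. Of 31 measured, 21 were above the limit (67.7%, against 36.5% of all genes), 1 was mixed and 9 were within noise. The median stood at the 88.6th percentile. Irf4, which dendritic cells grown in GM-CSF are known to need, read 42977, 43740 and 38177, and Irf5, a factor of inflammatory gene induction, 32292, 33077 and 29036. Irf8 read 30821, 19572 and 23490. Id2, an inhibitor of E proteins that is high in conventional dendritic cells, read 41871, 38096 and 47371, and Batf3, needed for the cross-presenting subset, 25625, 31596 and 25839. Spi1 (PU.1), the factor that sets the myeloid lineage, read 16181, 8901 and 8846. Batf3 was thus above the limit while the subset markers Itgae and Xcr1 were not. The E protein gene Tcf4 and Spib, both known from plasmacytoid cells, read 1091 and 1416 in experiments 2 and 3, and -291, 351 and 147 in experiments 1 to 3.

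Of the NF-kB genes, Nfkbia, the inhibitor that NF-kB itself induces, was brightest with 42083, 54530 and 52639. Relb, the subunit required for dendritic cell maturation, read 7762, 7398 and 8639, Rela 14945, 10915 and 12484, and Nfkb2 8287, 8780 and 8630. Rel read 282, 390 and 373, within noise. Among signal transducers, Stat5a, which acts after GM-CSF, read 11764, 20761 and 22346, Stat6 14174, 8950 and 8065, and Stat3 11342, 7326 and 7507.

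Maturation genes were largely above the limit, although no stimulus is named in the labels. Of 25 measured, 19 were above it (76%, against 36.5% of all genes), 1 was mixed and 5 were within noise. The median stood at the 91.6th percentile. Ccr7, the receptor for lymph node homing, read 44450, 38549 and 48216, and Cd83, a surface marker of mature dendritic cells, 34398, 43154 and 43225. Socs2, a suppressor of cytokine signalling, was the brightest of the group with 45975, 52937 and 52151.

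The costimulators differed in signal. Cd86 read 12973, 22714 and 22020, and its second probe set 7897, 16614 and 21562. Cd80, its partner as ligand of CD28, read 3247, 4494 and 3971, and Cd40, which receives the T cell's CD40 ligand, 1772, 3695 and 4328, mixed because experiment 1 lay under its limit. Tnfsf4 (OX40 ligand) read 3095, 8028 and 8015, and Cd200, an inhibitory ligand, 5840, 15307 and 17409. Each of these genes stood at a lower percentile in experiment 1 than in experiments 2 and 3, for Cd200 at the 85.4th against the 94.9th and 95.7th, and for Cd40 at the 66.1st against the 79.2nd and 81.5th. Over the whole group 9 genes stood higher and 11 lower in experiment 1, with a median shift of -0.19 points. Icam1, which holds the T cell, read 14366, 15345 and 18323, and Tnfrsf9 (4-1BB), a costimulatory receptor, 24746, 20494 and 22072. Traf1, an adaptor of such receptors, read 7169, 8196 and 9232. Tnfsf9, Tnfsf11, Tnfrsf11a, Il15 and Il15ra were within noise.

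Cytokine genes contrasted with that pattern. Of 46 measured cytokines and chemokines, 12 were above the limit (26.1%, against 36.5% of all genes), 3 mixed and 31 within noise, with a median at the 41.6th percentile. The 5 of highest signal were CC chemokines. Beside Ccl17 and Ccl22, Ccl5, which attracts effector T cells, read 34791, 86752 and 90373, Ccl9 31151, 86410 and 78104, and Ccl6 12584, 38314 and 40756. Ccl3 and Ccl4, chemokines of inflammation, read 7312, 3835 and 3256, and 4881, 3914 and 2588.

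Several cytokines known to direct T cells were within noise or mixed. Il12a read 189, 73 and -42, and Il12b 570, -443 and 156. Il10 read 29, 83 and 159, Tnf -1977, -365 and -1489, and Il1b 1562, 385 and -208. Il6 read 1776, 2391 and 3362, mixed because experiment 1 lay under its limit, and Il1a 2491, 1325 and 907. Of other cytokines, Csf1, the macrophage growth factor, was above the limit at 13660, 12462 and 15101, and Tgfb1 at 26220, 10032 and 7356. Il1rn, the natural antagonist of interleukin 1, read 7782, 2433 and 2777.

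Of 40 cytokine and chemokine receptors, 15 were above the limit, near the share over all genes. Beside Ccr7 and the GM-CSF receptor chains they included Il10rb, the shared chain of the interleukin 10 family, at 20958, 19862 and 18847. Il7r read 21571, 10206 and 12211 and Il4ra, which binds interleukins 4 and 13, 15778, 10860 and 10995. Ccr1, a receptor of immature cells for inflammatory chemokines, read 10326, 3899 and 3623, and Ccr2, the monocyte receptor for CCL2, 5222, 1219 and 1202, above the limit in experiment 1 alone.

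Of pathogen sensors, 14 genes had a single-symbol probe set, and 5 were above the limit (35.7%, close to the 36.5% of all genes): Cd14, Traf6, Irak1, Myd88 and Tollip. Cd14, the co-receptor for bacterial lipopolysaccharide, read 12008, 5571 and 4849, and the adaptors Traf6 4180, 4734 and 4803 and Myd88 3550, 3040 and 2754. The Toll-like receptors with a value, Tlr6 and Tlr7, were within noise. Among 22 Fc and uptake receptors, 12 were above the limit (54.5%). Fcgr2b, the inhibitory IgG receptor, read 30440, 9953 and 5291, and Olr1, a receptor for oxidised lipoprotein, 12114, 7238 and 8729.

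Interferon-induced genes were seldom above the limit, with 2 of 24 (8.33%, against 36.5%), 5 mixed and 17 within noise. The 2 were Gbp2, a guanylate-binding protein induced by interferon gamma, with 14036, 19230 and 22426, and Gbp3 with 3763, 3903 and 5128. Cell cycle genes were above it in 6 of 29 (20.7%). Those were the cyclin Ccnd2 (11186, 39624 and 34667), the cell cycle inhibitor Cdkn1a (11740, 32126 and 34551), Pcna (14744, 9315 and 10025), Mcm5, Mcm3 and Ccnb2, while the division genes Mki67, Top2a and Cdk1 were within noise.

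Genes of movement and energy supply ranked high. Of 25 cytoskeleton genes 23 were above the limit (92%, against 36.5% of all genes), with a median percentile of 97.4. Of 11 glycolysis genes 9 were above it (81.8%), with a median percentile of 97.8. Lcp1, the leukocyte actin bundler, read 36186, 51971 and 54824, and Cfl1, which cuts actin filaments, 54574, 51198 and 48182. Hk1, the first enzyme of glycolysis, read 35955, 65897 and 61969, and Ldha, which makes lactate, 52597, 54880 and 47226. In lipid metabolism 16 of 24 were above the limit (66.7%). They were led by Fabp5, a fatty acid carrier (48761 and 46976 in experiments 2 and 3), and Lpl, which frees fatty acids from lipoproteins (29311, 53777 and 41366). Of 16 genes of iron, oxidative and nitrogen metabolism 13 were above the limit (81.25%). Nos2, the inducible nitric oxide synthase, was within noise at 300, 447 and 503. Of 27 integrins and adhesion genes, 16 were above the limit (59.3%), and Selplg, the ligand of selectins, was brightest with 49835, 41947 and 42341.

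**Figure D4:**
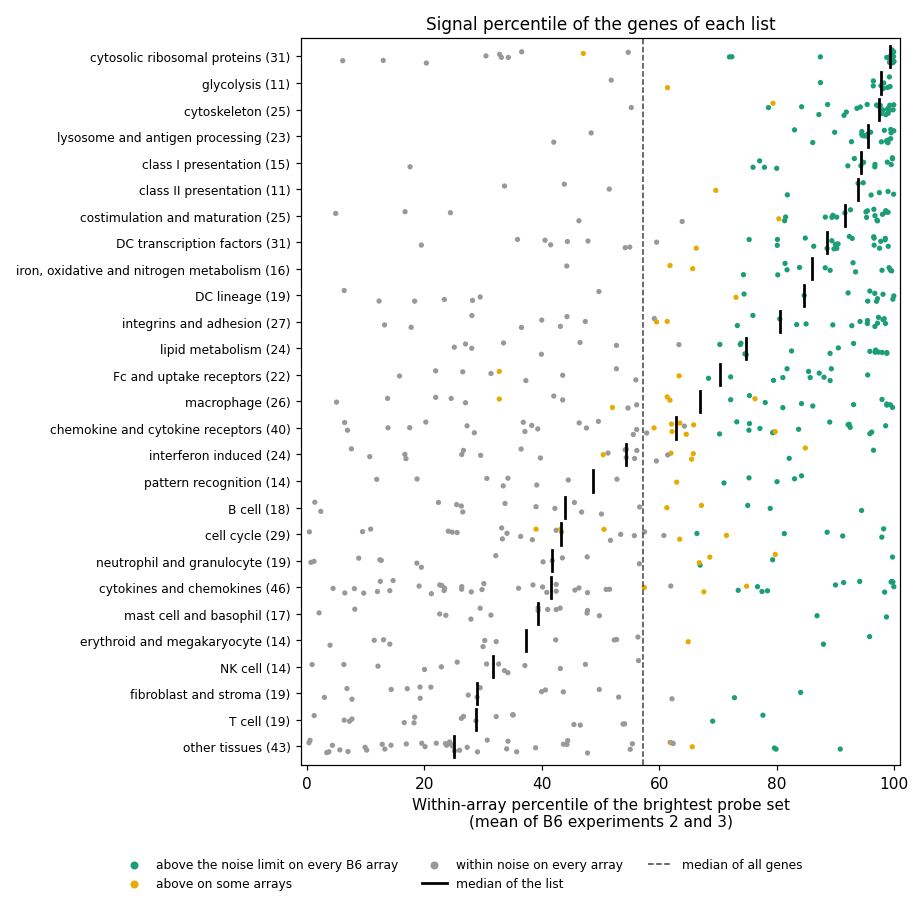
Within-array percentile of each measured gene (mean of experiments 2 and 3), by group, with the number of genes in brackets, the group's median as a black bar and the median of all genes as a dashed line. Ribosomal, glycolysis, cytoskeleton and presentation genes have medians above the 90th percentile, while markers of NK, T, stromal and other tissue cells have medians under the 32nd. Bright groups also hold dim members. Of 31 ribosomal genes, 21 were above the limit (67.7%, against 36.5% of all genes) and 9 within noise, and of 11 class II genes 3 were within noise.

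Markers of other cell types were read in the same way, those of macrophages first. Of 26 macrophage genes 12 were above the limit (46.2%, against 36.5% of all genes), 5 mixed and 9 within noise, with a median at the 67.0th percentile (57.2nd over all genes). The members above it included Chil3, Mmp12 (33669, 76137 and 70025), a metalloelastase, Lpl, Fabp5 and Arg1 (57684, 40785 and 27604), which degrades arginine. Csf1r, the receptor for the macrophage growth factor, read 11967, 3495 and 2455, and Cd68, a lysosomal glycoprotein, 26847, 7040 and 5197, while a second probe set of each gene was within noise. The complement genes C1qa, C1qb and C1qc, with Marco, Apoe, Mertk and Siglec1, were within noise.

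Several macrophage genes stood higher in experiment 1. Mrc1, the mannose receptor, read 8051 there (89.3rd percentile) and 234 and 117 in experiments 2 and 3 (35.6th and 29.8th). Adgre1 (F4/80) read 3798, 1093 and 560, and Itgam (CD11b) 4222, 1341 and 1406. Of the 22 macrophage genes on both designs, 17 stood at a higher percentile in experiment 1 and 5 at a lower one, with a median shift of 8.77 points, against 1.90 points over all genes. The NK cell genes, all within noise, shifted by a median of 9.33 points, and the lineage genes by 0.91. Whether other cells took part in these values was not tested, and more such cells and more RNA per cell cannot be told apart in bulk RNA.

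For neutrophils, 3 of 19 genes (15.8%, against 36.5% of all genes) were above the limit, namely Chil3, Cxcr2 and Lcn2, and 5 without experiment 1. Lcn2 read 1970 and 1703.5 in experiments 2 and 3, the latter barely over the limit of 1703, with no probe set of that name in experiment 1. Its other probe set was within noise (728 and 978). The granule genes Mpo, Elane, Ngp and Ltf and the calcium-binding S100a8 and S100a9 were within noise. Camp, another granule gene, was mixed with 1076, 1974 and 2030 in experiments 1, 2 and 3. Csf3r (1822, 3879 and 3753) and Ly6g (1974, 2414 and 1371) were mixed too. Of 19 T cell genes 2 (10.5%) were above it, the adaptor Lat (4813, 3316 and 3399) and Rag1 (1906 and 2215). Rag1's other probe set was within noise on all 3 arrays. The CD3 chains Cd3e, Cd3d and Cd3g were within noise. Of 18 B cell genes 3 (16.7%) were above it: Blnk, Ighm and Pax5. Blnk, a signalling adaptor, read 7861, 12465 and 16820, and a second probe set 8164, 12308 and 16457, whereas 14 of the 16 probe sets of Ighm and the other one of Pax5 were within noise. Of the defining B cell markers Cd79a was within noise, and Ms4a1 and Cd79b were mixed.

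No NK cell gene of 14 was above the limit, against 36.5% of all genes. Of 17 mast cell and basophil genes, 2 (11.8%) were above it: Srgn, a proteoglycan of many blood cells (14283, 46925 and 44664), and Mcpt1, whose other probe set was within noise. Cpa3, Ms4a2 and Fcer1a, markers that define these cells, were within noise. Of 14 erythroid and megakaryocyte genes, 2 (14.3%) were above it, Car2, a carbonic anhydrase (3796, 15176 and 22532), and Klf1, an erythroid transcription factor (5674, 8320 and 6077). The globin genes Hba-a1 and Hbb-b2 and the heme enzyme Alas2 were within noise. Of 19 stromal genes, 2 (10.5%) were above it, Col1a2 (5133 and 5060) and Fn1 (3650, 2272 and 2789), and Col1a1, Col3a1 and Dcn were within noise.

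Genes known mainly from other tissues were read as well, each by its brightest probe set. They were chosen with earlier results of these data known, so their share is no independent rate of false calls. Of 43 such genes (liver, muscle, brain, testis, skin and others), 3 were above the limit (6.98%), 2 mixed and 38 within noise. The 3 were Gh, growth hormone, with 7963, 9449 and 9043, Krt1, a skin keratin, with 5536, 3912 and 3652, and Mbp, myelin basic protein, with 3140, 3921 and 3755, where Mbp's other probe set was within noise.

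Promoters of the genes were described by signal. Of 5268 genes with 1 entry in the RefSeq promoter table (build GRCm38.p6, 250 bases before to 50 after the start), the 2846 within noise had a median of 16 CG dinucleotides and a GC content of 58.3%. The 914 from the limit to 5000 and the 538 between 5000 and 10000 each had a median of 22 CG dinucleotides, and the 25 above 80000 had 19. The letters TATAAA on the sense strand, 45 to 16 bases before the start, occurred in 4.88% of the promoters of genes within noise, and in 1.75% and 1.30% in those bands of moderate signal, against 3.64% over all these promoters. Above them the share was 2.36% from 10000 to 20000 and 4.03% from 20000 to 40000. Between 40000 and 80000 it rests on 3 of 46 promoters, and above 80000 on 1 of 25. These are shares of letters in the reference, given without a test.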

How the data were processed

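The authors deposited linear intensities for every probe set of each array. The steps from scan to intensity were not given in the sources used here. The deposited arrays share one trimmed mean (2% trimmed at each end: 2500 in experiment 1, 2502 in experiments 2 and 3), so they were scaled before deposit. That scale was kept. Ranks within an array do not depend on it. Columns were tied to the groups through the sample titles. No test was run, because all values belong to 1 group, and no p-value is given.

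Control probe sets (66 per design) were left out except as a check of background. Gene symbols come from the platform annotation tables and, through Entrez identifiers, RefSeq. Of 12422 probe sets, 10833 have 1 symbol, 396 several and 1193 none. Of 12588, the numbers are 10276, 363 and 1949. Those with several or none were left unnamed. Genes in 27 lists were counted. Members and lists were chosen with earlier results of these data known. Named genes were drawn from the markers, the 30 of highest signal, up to 8 bright members per list, any members of the class II, lineage, maturation, cytokine and transcription factor lists, other cell types' members above the limit, and the 10 per direction that differ most between arrays. Python 3.11.15, numpy 2.4.6, pandas 2.3.3, scipy 1.17.1 and matplotlib 3.10.9 were used.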

Additional observations from a re-analysis of the deposited data

Results flagged for a closer look

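One probe set that should find no target read above the noise limit. Among 15 antisense control probe sets, that for the 5′ part of BioDn read 1881 in B6 experiment 2 and 2131 in experiment 3, over the limit of 1703, and 1296 in experiment 1, under 2209. The other antisense controls lay under the limits on all 3 B6 arrays.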

How the results depend on the processing

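A limit at the 90th percentile, or one taken from each array by itself, kept the total counts of probe sets and of genes above it within 1.5 times. A limit at the 99th percentile gave 2627 probe sets in experiments 2 and 3 and 1987 genes, and values merely above 0 gave 9208 probe sets in experiments 2 and 3, 9340 in experiment 1, 7036 shared ones on all 3 arrays and 6315 genes. Leaving out 1 B6 array gave 4269 to 4311 probe sets, 3244 to 3443 shared ones and 3091 to 3222 genes. Among the 30 brightest genes, 29 to 30 remained when experiment 2 or 3 was left out, 22 with the median probe set of a gene, and 8 in experiment 1 alone. Probe sets over 2-fold apart between experiments 2 and 3 numbered 29 after quantile normalization, 81 with the floor at 0.5 times the limit and 5 at 2 times. Of the 27 lists, counts moved by over 1.5 times in 16 for values above 0, 9 at the 99th percentile, 2 at the 90th, 4 with the median probe set and 1 without experiment 1. At the 99th percentile these included 2 T cell genes going to 0 and 15 receptors to 9. Values near the limit on 3 arrays, and on 2 for genes of one design, limit what can be said of dim genes. No paired analysis was possible because all values belong to 1 group and no test between groups was made.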

Other observations

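Probe sets found on one design only were above the limit less often than shared ones in these B6 cells. On the array of experiment 1, 237 of 2611 such probe sets (9.08%) were above the limit, against 3523 of 9977 shared ones (35.3%). In experiments 2 and 3, 618 of 2445 (25.3%) were above it on both arrays, against 3443 of 9977 (34.5%).

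Among genes measured on both designs and above the limit on one side, 44 of 3045 stood over 20 percentile points higher in experiment 1 and 32 over 20 points lower. Beside Mrc1, the genes with the largest rise by percentile were Aldoart2 (4666 in experiment 1, -431 and -1183 in experiments 2 and 3), Ddx56 (5999, -506 and 1643) and several kallikreins, of which Klk1b5 read 11635, 963 and 898. The early response gene Egr1 read 5915, 864 and 642. The largest falls were those of Pcp2 (-1901 in experiment 1, 8433 and 8494 in experiments 2 and 3), Sh2d2a (-2683, 4206 and 4383) and Josd2 (-715, 2955 and 4583). Cdkn2a, which holds cells in the cycle's first gap phase, read -245, 3100 and 6057.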
